A study of Homo sapiens with 15 samples.

Results

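The COPII coat is the protein shell that buds transport vesicles from the endoplasmic reticulum (ER). SEC31B, a paralog of the outer subunit gene SEC31A, is described with the partners of the coat. The other inner and outer subunits, and the SAR1 GTPases that recruit them, are encoded by 10 genes of the deposited table of 59608 genes: SAR1A, SAR1B, SEC23A, SEC23B, SEC24A, SEC24B, SEC24C, SEC24D, SEC13 and SEC31A. They were chosen by symbol, from the known composition of the coat, with earlier results of these data known. Each of the 10 passed the filter on low values. RNA came from MDA-MB-231 cells, a human triple-negative breast cancer line, grown as 2D cultures in 10 cm dishes. The dishes received DMSO vehicle (0.1%) or ZJ-101, an analog of the marine sponge product superstolide A, at 0.5, 5, 50 or 500 nM for 6 h. Each of the 5 groups held 3 biological replicates, so 15 libraries of poly-A RNA were compared, all from 1 cell line and 1 time point. The comparison asked which coat genes responded to the compound, at which dose, and whether the paralogs of a family responded alike.

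COPII assembles when SAR1, loaded with GTP, inserts into the ER membrane and recruits the SEC23-SEC24 heterodimer. SEC24 is the subunit that recognizes the export signals of cargo, SEC23 is the GTPase-activating protein of SAR1, and SEC13 with SEC31 forms the outer cage that bends the membrane. Vertebrates carry several paralogs of SAR1, SEC23 and SEC24, and the SEC24 paralogs, which fall into an A/B and a C/D subgroup, differ in the cargo that they bind. Inherited defects in SEC24D cause a bone fragility syndrome and those in SEC23B a congenital anemia, and loss of SAR1B blocks the export of chylomicrons in the gut.

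The values were normalized counts, which are reads per gene divided by a size factor of the library. The libraries held between 12415519 and 15284762 reads on genes, and mitochondrial transcripts took 0.889% to 2.06% of them, with ranges that overlapped between DMSO and 500 nM. VIM, CD44 and ANXA1, which this line is known to express, lay between 9139 and 18410 normalized counts, and ESR1 and PGR at 17.3 or below. Other genes went against the list of markers used. SPARC, listed as high, was near 0 at 6.18 or below. ERBB2 and the epithelial genes CDH1 and EPCAM, listed as low or absent, lay at 1136 to 1328, 107 to 206 and 266 to 320.2. Leukocyte PTPRC and CD3E stayed at 3.53 or below, and endothelial CDH5 did so at 3.09 or below, although PECAM1 reached 321. One library stood apart. Replicate 2 at 0.5 nM had a root mean square log2 distance of 0.32 to the other replicates of its group, against 0.238 to 0.291 for all other libraries. In it SEC24C, SEC31A and SEC24B lay below the mean of the other replicates at that dose by differences of -25.7%, -21.0% and -18.0%.

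Differences were tested with limma on log2(normalized count + 1) over 13561 genes whose mean was 10 or more, with Benjamini-Hochberg adjustment over all of them and a threshold of 0.05. The log2 changes below are on this scale, the standard error is abbreviated SE, and all doses shared the same 3 DMSO libraries. At 500 nM, 6 of the 10 coat genes fell and 0 rose, where 17.8% of all tested genes passed in either direction and 10.1% fell. SEC24D had the largest change, -57.4%, followed by SEC24A with -33.1%. SEC31A, SEC23A, SEC13 and SAR1A changed by -18.4%, -17.1%, -11.2% and -8.88%, while SEC24B, SEC24C, SEC23B and SAR1B did not pass. With edgeR and with DESeq2 (background 17.9% and 16.3%) 6 fell and 0 rose as well, and 0 were higher at an unadjusted p under 0.05. At 50 nM, 4 coat genes fell and 0 rose (background 6% in either direction and 3.71% lower). At 5 nM 0 of the 10 passed with limma or edgeR and 1 with DESeq2. The background, at the same adjusted threshold, was 2.18% with limma, 2.4% with edgeR and 2.6% with DESeq2. With limma 1 of the 10 had an unadjusted p under 0.05 at 5 nM, and the share of all genes at that threshold is not given. At 0.5 nM 1 gene fell, SAR1A, and 0 rose, against a background of 1.17% in either direction. The median log2 change of the 10 genes was -0.04, -0.0088, -0.14 and -0.15 at the rising doses, where that of all tested genes lay between -0.0069 and 0.0027.

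**Figure D1:**
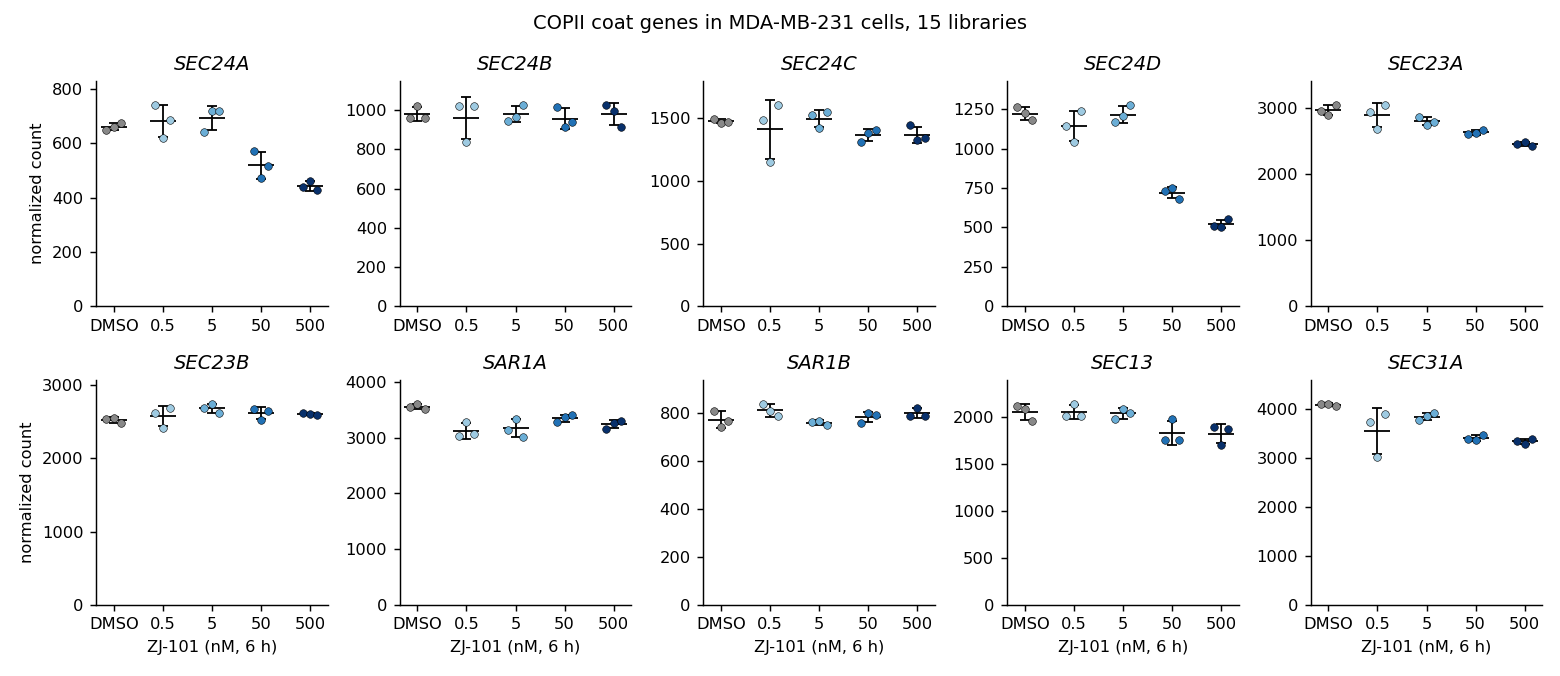
Normalized counts (y axis, from 0) of the 10 COPII coat genes in DMSO and at 0.5, 5, 50 and 500 nM ZJ-101 (x axis), one panel per gene; points are the 3 libraries of a group, the bar is the mean and the whiskers are 1 SD. SEC24D drops from a mean of 1224 in DMSO to 521 at 500 nM and SEC24A from 661 to 442, while SEC24B averages 979.5 and 978.

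SEC24D lies on the minus strand of chromosome 4 at 118722823 to 118838683 (GRCh38, GENCODE 44), and none of its exon bases is shared with another gene. Its DMSO libraries held 1267, 1225 and 1179.9 normalized counts. The libraries at 0.5 nM held 1146.5, 1046 and 1240.3, and those at 5 nM held 1168, 1206 and 1277. Both low doses therefore overlapped DMSO. At 50 nM SEC24D fell to 731, 751 and 683 normalized counts, and at 500 nM to 508, 505 and 552. Each library at 50 nM was below each of the 9 libraries at lower doses, and each library at 500 nM was below each library at 50 nM.

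The log2 change of SEC24D was -0.10 at 0.5 nM and -0.0083 at 5 nM, and neither passed (adjusted p = 0.497 and 0.981, limma). It was -0.76 at 50 nM (SE 0.0633, adjusted p = 1.76e-07, limma) and -1.23 at 500 nM (SE 0.0633, adjusted p = 1.31e-10, limma). By p the gene ranked 31 of the 6886 genes that were lower at 50 nM and 13 of the 6697 that were lower at 500 nM. The fall was spread over 2 steps of the dose series. From 5 to 50 nM the log2 difference was -0.75 (adjusted p = 3.4e-07, limma), and from 50 to 500 nM it was -0.47 (adjusted p = 0.000286, limma). SEC24D kept both of its calls, at 50 and 500 nM, under every other setting that was run, including the omission of any 1 library.

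SEC24A, the most weakly expressed of the SEC24 paralogs per transcript length, was the other one that fell. It lies on the plus strand of chromosome 5 at 134648785 to 134727909 (GRCh38) and shares 5.34% of its exon bases with SAR1B, which runs on the opposite strand. DMSO libraries had 648, 661 and 675 normalized counts, those at 0.5 nM had 741, 619.7 and 686, and those at 5 nM had 640.2, 719 and 720.1. At 50 nM the values were 572, 472 and 515, and at 500 nM they were 437, 462 and 427. All 6 libraries of the upper doses were below every library of DMSO and of the lower doses. The log2 change was -0.35 at 50 nM (SE 0.0759, adjusted p = 0.0065, limma) and -0.58 at 500 nM (SE 0.0759, adjusted p = 1.86e-05, limma). From 5 to 50 nM SEC24A fell by 0.42 on the log2 scale (adjusted p = 0.00218, limma), whereas the step from 50 to 500 nM, at -0.23, did not pass (adjusted p = 0.161, limma).

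SEC24B and SEC24C did not pass at any dose. SEC24B had 958, 1019.7 and 961 normalized counts in DMSO and 1025, 993 and 916 at 500 nM, so the groups overlapped. Its log2 change at 500 nM was -0.0031, with a 95% confidence interval of -0.15 to 0.15. SEC24C had 1497, 1464 and 1473 normalized counts in DMSO and 1444, 1324 and 1342.5 at 500 nM. Every SEC24C library at 500 nM was below every DMSO library, but the log2 change of -0.11 (95% confidence interval -0.29 to 0.06) did not pass (adjusted p = 0.423, limma). Without replicate 2 at 0.5 nM, the library in which SEC24C was lowest at 1148, the SEC24C slope on dose rank passed at -0.04 per step (adjusted p = 0.0373, limma), while with it the slope was -0.03 (adjusted p = 0.404). SEC24C shares 42.8% of its exon bases with ENSG00000279689 on the opposite strand, so without a stated strand setting its reads cannot be told apart from those of that gene.

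**Figure D2:**
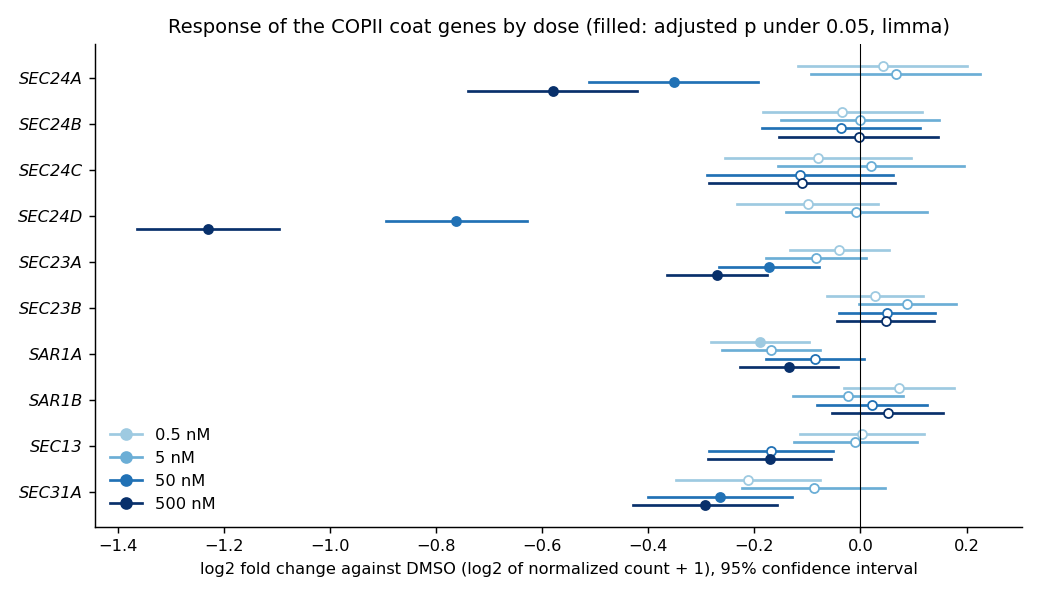
Log2 fold change against DMSO (x axis, log2 of normalized count + 1) of each COPII coat gene (y axis) at 0.5, 5, 50 and 500 nM, with 95% confidence intervals from limma; filled points passed an adjusted p of 0.05. The interval of SEC24D at 500 nM lies left of those of every other gene, those of SEC24B include 0 at each dose, and no filled point lies right of 0.

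The ratio of a pair of paralogs within 1 library does not depend on how libraries are scaled, and it tests the difference between them directly. All 8 pairs within the SEC24, SEC23 and SAR1 families were tested by how the log2 ratio sloped with dose rank (DMSO lowest, 500 nM highest), with a two-sided permutation test of the dose labels (100000 resamples) and adjustment over the 8 pairs. The 6 SEC24 pairs are built from 4 genes and are not independent of each other. SEC24D lost ground to each of the other paralogs. The log2 ratio of SEC24D to SEC24B changed by -0.31 per dose step (adjusted p = 8e-05, permutation test) and that of SEC24D to SEC24C by -0.29 per step (adjusted p = 8e-05, permutation test). Between the 2 paralogs that fell, the ratio of SEC24D to SEC24A still changed by -0.16 per step (adjusted p = 0.00012, permutation test). SEC24A in turn declined relative to SEC24B by -0.15 per step (adjusted p = 0.000208, permutation test) and relative to SEC24C by -0.13 per step (adjusted p = 0.00189, permutation test). For SEC24B against SEC24C no difference was detected, with a slope of 0.02 per step (adjusted p = 0.157, permutation test).

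In plain ratios of normalized counts, SEC24D exceeded SEC24B in DMSO, with ratios of 1.20 to 1.32, and was below it at 500 nM, with ratios of 0.495 to 0.603. The order of these paralogs in reads was thus opposite in the 2 groups. The ratio of SEC24D to SEC24C went from 0.801 to 0.846 in DMSO to 0.351 to 0.411 at 500 nM, and that of SEC24D to SEC24A from 1.75 to 1.96 to 1.09 to 1.29. As differences of the log2 ratio between 500 nM and DMSO these were -1.23, -1.12 and -0.65. In each of these pairs the 3 libraries at 500 nM did not overlap the 3 of DMSO, which is the smallest p that 3 against 3 can give (exact permutation p = 0.1).

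**Figure D3:**
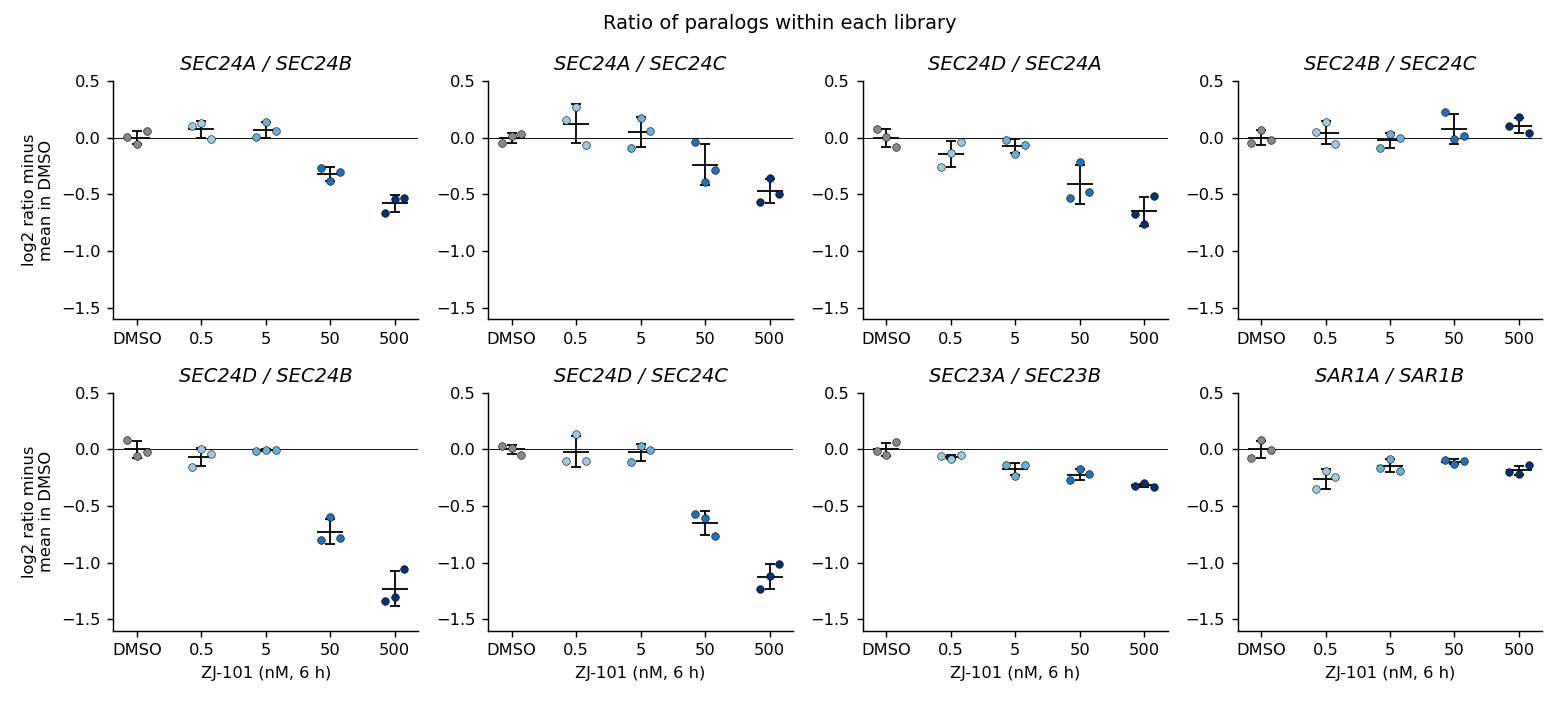
Log2 ratio of the normalized counts of 2 paralogs within a library, minus the mean ratio in DMSO (y axis), by group (x axis), for the 8 pairs; points are libraries, bars are means and whiskers are 1 SD. The ratio of SEC24D to SEC24B averages -1.23 and that of SEC24A to SEC24B -0.58 at 500 nM, whereas SEC24B to SEC24C stays within 0.11 of DMSO on average.

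Levels of different genes can be compared only per transcript length, and here each normalized count was divided by the length of the canonical GENCODE transcript in kb. This takes that transcript as the expressed isoform, which was not tested. In DMSO the order per kb was SEC13 (1513 ± 63.2, SD, n = 3), SEC31A (953 ± 6.71), SEC23B (834 ± 12.1), SEC23A (773 ± 18.7) and SAR1A (602 ± 8.05), followed by SEC24C (332.5 ± 3.87), SEC24D (305 ± 10.8), SEC24B (193 ± 6.86), SAR1B (118 ± 5.26) and SEC24A (103.5 ± 2.11). No neighbors in this order overlapped among the DMSO libraries. At 500 nM SEC24D was at 129.8 ± 6.60 per kb (SD, n = 3), below SEC24B at 192 ± 11.1. Its range of 125.6 to 137 per kb overlapped that of SAR1B, 120.6 to 125.9, so these neighbors did not differ beyond their spread.

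Within the SEC24 family, SEC24D made up 33.5%, 32.5% and 31.9% of the reads per kb in the DMSO libraries. At 50 nM it made up 23.7%, 24.9% and 22.6%, and at 500 nM 17.5%, 18.2% and 20.02%. The 3 groups did not overlap. The mean share of SEC24C was 35.6% ± 0.48 in DMSO and 44.04% ± 0.97 at 500 nM, and that of SEC24B was 20.65% ± 0.69 and 27.5% ± 1.09 (SD, n = 3 each). Shares add up to 100%, so these shares increased although the normalized counts of SEC24B and SEC24C did not pass a test. The mean share of SEC24A was 11.1% ± 0.364 in DMSO and 9.89% ± 0.511 at 500 nM (SD, n = 3 each), and these groups did not overlap. The sum of the 4 SEC24 paralogs per kb was 933 ± 11.9 in DMSO, 756 ± 8.62 at 50 nM and 699.6 ± 19.0 at 500 nM (SD, n = 3 each). Without correction for length, SEC24D took 28.2% ± 0.746 of SEC24 reads in DMSO and 15.8% ± 1.15 at 500 nM.

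**Figure D4:**
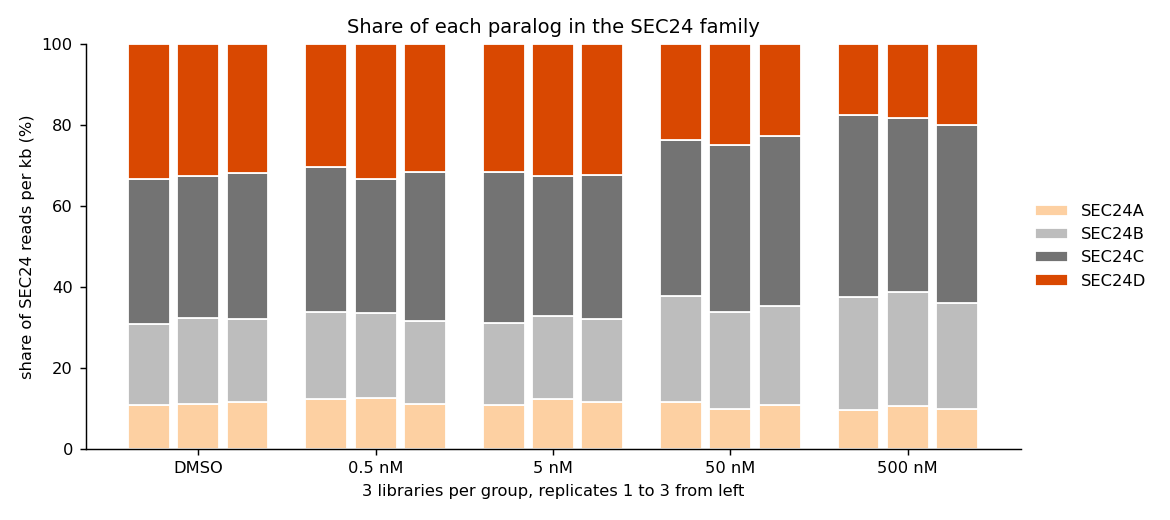
Share of each SEC24 paralog in the normalized counts per kb of the family (y axis, %, each bar adds up to 100%) in the 15 libraries, with the 3 replicates of a group side by side. The SEC24D segment is between 31.9% and 33.5% in DMSO and between 17.5% and 20.02% at 500 nM, and the SEC24C segment is the widest at 500 nM.

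SEC23A and SEC23B encode the other inner coat protein, the GTPase-activating subunit that SEC24 binds. SEC23A (chromosome 14, 39031919 to 39109646, minus strand) had 2959.8, 2905 and 3048 normalized counts in DMSO. It had 2603.5, 2625 and 2677 at 50 nM and 2460.3, 2496 and 2433 at 500 nM, and these libraries were all below those of DMSO. The log2 change at 500 nM was -0.27 (SE 0.0447, adjusted p = 0.000253, limma), and this call was kept under every other setting that was run. At 50 nM the change was -0.17 (adjusted p = 0.0244, limma), and omission of DMSO replicate 1, DMSO replicate 3 or any 1 of the 50 nM libraries ended the call, with an adjusted p between 0.052 and 0.117. SEC23B (chromosome 20, 18507520 to 18561415, plus strand) had 2539.8, 2547 and 2481 normalized counts in DMSO and 2619, 2607 and 2593 at 500 nM. Every library of SEC23B at 500 nM was above every DMSO library, but the log2 change of 0.05 (95% confidence interval -0.04 to 0.14) did not pass (adjusted p = 0.521, limma).

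The paralogs of SEC23 differed in their response. The log2 ratio of SEC23A to SEC23B changed by -0.08 per dose step, with a permutation p of 1e-05, the smallest that the resamples can give (adjusted p = 8e-05, permutation test). The ratio of normalized counts was 1.14 to 1.23 in DMSO and 0.938 to 0.957 at 500 nM. The mean share of SEC23A in the pair per kb was 48.1% ± 0.955 in DMSO, 47.0% ± 0.268 at 0.5 nM, 45.1% ± 0.937 at 5 nM, 44.3% ± 0.821 at 50 nM and 42.7% ± 0.276 at 500 nM (SD, n = 3 each). The share was lower at each successive dose on average, and of the neighboring groups 5 and 50 nM overlapped. The mean share of SEC24D in its family was 32.6%, 31.8% and 32.2% in DMSO, at 0.5 nM and at 5 nM. The sum of SEC23A and SEC23B per kb was 1607 ± 7.86 in DMSO and 1502 ± 10.96 at 500 nM (SD, n = 3 each).

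SEC31A and SEC13, of the outer cage, both fell at 500 nM. SEC31A (chromosome 4, 82818509 to 82901166, minus strand) had 4111, 4111 and 4061 normalized counts in DMSO, 3382.5, 3366 and 3476 at 50 nM and 3344, 3291 and 3389.7 at 500 nM. The upper doses did not overlap DMSO. SEC31A shares 6.09% of its exon bases with THAP9-AS1 on the same strand and THAP9 on the opposite strand. The log2 change was -0.26 at 50 nM (SE 0.0645, adjusted p = 0.0163, limma) and -0.29 at 500 nM (SE 0.0645, adjusted p = 0.00314, limma). The call at 500 nM was kept under every other setting that was run. That at 50 nM was lost when DMSO replicate 1, DMSO replicate 2 or the first 50 nM replicate was omitted (adjusted p between 0.0602 and 0.063). At 0.5 nM SEC31A had 3741.5, 3022.5 and 3911.5 normalized counts, and its log2 change of -0.21 did not pass (adjusted p = 0.128, limma). Without replicate 2 at that dose the change was -0.10, and without replicate 3 it was -0.28 and passed (adjusted p = 0.0214, limma). The slope over all doses was -0.06 per step (adjusted p = 0.0123, limma), and over the 12 treated libraries alone it did not pass (adjusted p = 0.275).

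SEC13 (chromosome 3, 10293131 to 10321112, minus strand) is a small WD-repeat protein that also sits in the Y complex of the nuclear pore and in GATOR2, a regulator of nutrient signaling. It had 2118, 2092 and 1958 normalized counts in DMSO, 1758, 1979 and 1756 at 50 nM and 1901, 1707 and 1874 at 500 nM. The 50 nM group overlapped DMSO and the 500 nM group did not. The log2 change at 500 nM was -0.17 (SE 0.0552, adjusted p = 0.0386, limma), a call that ended when DMSO replicate 1, DMSO replicate 2 or the second or the third 500 nM replicate was omitted (adjusted p between 0.0551 and 0.2). At 50 nM the change was also -0.17 and did not pass (adjusted p = 0.0847, limma), but passed without replicate 2 at 0.5 nM or without replicate 2 at 50 nM (adjusted p = 0.0401 and 0.0172). The slope on dose rank was -0.05 per step and passed (adjusted p = 0.0101, limma).

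SAR1A (chromosome 10, 70147289 to 70170523, minus strand), the GTPase that starts coat assembly, followed another pattern over the doses. It had 3541, 3607.5 and 3515 normalized counts in DMSO and 3022, 3277 and 3059 at 0.5 nM. At 5 nM it had 3143.5, 3338 and 3016, at 50 nM 3283, 3363 and 3401.5, and at 500 nM 3156, 3265 and 3297. Each of the 12 treated libraries was below each DMSO library, and the lowest mean was that at 0.5 nM. The log2 change was -0.19 at 0.5 nM (adjusted p = 0.0451, limma), -0.17 at 5 nM (adjusted p = 0.0553, limma), -0.09 at 50 nM (adjusted p = 0.337, limma) and -0.13 at 500 nM (adjusted p = 0.042, limma). The slope on dose rank was -0.02 per step and did not pass (adjusted p = 0.471, limma).

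The calls of SAR1A rest on the individual libraries. At 0.5 nM the call ended on omission of any 1 DMSO or 500 nM library, of replicate 1 or 3 at 0.5 nM or 50 nM, or of replicate 1 at 5 nM (adjusted p between 0.051 and 0.183). At 5 nM the gene passed on omission of replicate 2 or 3 at 0.5 nM or of replicate 2 at 5 nM (adjusted p between 0.0127 and 0.0497). At 500 nM the call ended on omission of any 1 DMSO or 500 nM library, of replicate 1 at 5 nM or of replicate 3 at 50 nM (adjusted p between 0.0518 and 0.153). SAR1B (chromosome 5, 134601149 to 134649271, minus strand) had 807, 739.5 and 764 normalized counts in DMSO and 787, 820.2 and 786 at 500 nM, and the groups overlapped. Its log2 change at 500 nM was 0.05, with a 95% confidence interval of -0.05 to 0.16. A difference between SAR1A and SAR1B over dose was not detected (slope of the log2 ratio -0.02 per step, adjusted p = 0.267, permutation test), although the ratio of their normalized counts, 4.39 to 4.88 in DMSO, did not overlap that at 500 nM, 3.98 to 4.19 (exact permutation p = 0.1).

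Over all 15 libraries, 5 of the 10 coat genes had a falling slope on dose rank and 0 a rising one. Of all tested genes 17.6% passed in either direction and 9.33% fell. edgeR and DESeq2 (background 17.7% and 18.7%) also gave 5 and 0, and 0 slopes were positive at an unadjusted p under 0.05. The slopes per dose step were -0.31 for SEC24D, -0.16 for SEC24A, -0.07 for SEC23A, -0.06 for SEC31A and -0.05 for SEC13. Between neighboring doses, 0 coat genes differed from 0.5 to 5 nM with limma, edgeR or DESeq2 (background at the adjusted threshold 0.118%, 0.125% and 0.214%). At this step 0 coat genes had an unadjusted p under 0.05 with limma, and the share of all genes at that threshold is not given. From 5 to 50 nM 2 fell, SEC24D and SEC24A, and 0 rose (background 5.01% in either direction). Without replicate 2 at 0.5 nM SEC31A passed too (adjusted p = 0.00143, limma), as did SEC13 without replicate 2 at 50 nM (adjusted p = 0.03, limma). From 50 to 500 nM 1 fell, SEC24D, and 0 rose (background 2.28% in either direction). Counted by libraries that did not overlap those of DMSO, 7 coat genes were lower and 1 was higher at 500 nM, where 19.6% of all tested genes were lower and 18.9% higher. In bulk RNA, fewer cells that express a gene and less RNA of it per cell cannot be told apart.

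The genes whose pattern over the 15 libraries was most like that of SEC24D, by Pearson r of the log2 values, were ITGA5 (r = 0.99), CD276 (0.99), CEMIP2 (0.99), ERO1A (0.99) and ITGA6 (0.99). This is a description, since the 15 points share doses and libraries. ITGA5 and ITGA6 encode integrin alpha subunits, CD276 an immunoglobulin-family membrane protein, CEMIP2 a membrane hyaluronidase and ERO1A an oxidase of the ER lumen. At 500 nM their log2 changes were -1.05, -0.66, -0.96, -0.70 and -0.99, against -1.23 for SEC24D. Within the coat, r with SEC24D was 0.95 for SEC24A, 0.90 for SEC23A, 0.79 for SEC13, 0.72 for SEC31A and 0.45 for SEC24C, and between -0.31 and 0.07 for the other 4 genes.

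The coat works with proteins that organize ER exit sites. Of 11 tested exit site organisers and COPII regulators, 3 rose and 1 fell at 500 nM, with a median log2 change of 0.07 (background 7.69% higher and 10.1% lower). MIA2, a cargo receptor of exit sites for bulky lipoproteins and collagen, had 598, 568 and 549 normalized counts in DMSO and 724, 696 and 716 at 500 nM, a log2 change of 0.32 (adjusted p = 0.000639, limma). KLHL12, the adaptor with which CUL3 ubiquitinates SEC31, rose by 0.26 (adjusted p = 0.0065, limma), a call lost without DMSO replicate 2 (adjusted p = 0.0503). TFG, which clusters COPII vesicles at exit sites, fell by 0.20 on the log2 scale (adjusted p = 0.00241, limma). PREB, the exchange factor that loads SAR1 with GTP, had 872, 874 and 888 normalized counts in DMSO and 908, 869 and 873 at 500 nM, a log2 change of 0.0085 (adjusted p = 0.928, limma). SEC31B, the paralog of SEC31A, was at 52.9 to 62.9 normalized counts in DMSO and 62.2 to 92.0 at 500 nM. Its log2 change of 0.46 did not pass (adjusted p = 0.0913, limma), though it passed without 500 nM replicate 1 (adjusted p = 0.0306). The slope of SEC31B on dose rank was 0.11 per step and passed as a rise (adjusted p = 0.0458, limma). SEC31B shares 18.5% of its exon bases with a gene on the same strand.

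Of the 16 cargo receptors that COPII vesicles carry out of the ER, 9 fell and 2 rose at 500 nM, with a median log2 change of -0.18 (background 10.1% lower and 7.69% higher). TMED7 and TMED9, of the p24 family, had the largest falls, at -0.79 (adjusted p = 3.01e-09, limma) and -0.77 (adjusted p = 1.79e-09, limma). TMED7 had 2224, 2221 and 2329 normalized counts in DMSO and 1219, 1362 and 1352 at 500 nM, and shares 20% of its exon bases with neighboring genes. CNIH1 and CNIH4, of the cornichon family of cargo receptors, rose by 0.25 (adjusted p = 0.000606, limma) and 0.17 (adjusted p = 0.00946, limma). Of 7 SNAREs and tethers of the step from ER to Golgi, 2 fell and 0 rose, with edgeR and DESeq2 as well (background with limma 10.1% lower and 7.69% higher). BET1, at -0.34 (adjusted p = 0.0147, limma), lost its call on omission of replicate 2 of DMSO or of 500 nM. STX5, at -0.26 (adjusted p = 0.00799, limma), did so on omission of replicate 1 of DMSO or replicate 2 of 500 nM, and the adjusted p of both reached at most 0.092.

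The COPI coat, which carries proteins back from the Golgi to the ER, served as a coat for comparison. Of its 9 tested genes 6 fell and 0 rose at 500 nM with limma, edgeR and DESeq2 (background with limma 10.1% lower and 7.69% higher), and the median log2 change was -0.15, the same to 2 decimals as that of the COPII genes. The largest fall in COPI was that of COPG1, with 2769, 2662 and 2769.7 normalized counts in DMSO and 2156, 2040 and 2158.5 at 500 nM, a log2 change of -0.37 (adjusted p = 3.93e-06, limma). ARCN1, the delta subunit, fell by 0.23 on the log2 scale (adjusted p = 0.00725, limma). Among the 10 partners of SEC13 outside COPII, in the nuclear pore and GATOR2, 0 passed at 500 nM with limma, edgeR or DESeq2. The background in either direction was 17.8%, 17.9% and 16.3%, so a count of 0 among 10 genes does not set this list apart. Their log2 changes lay between -0.07 and 0.17, and 2 had an unadjusted p under 0.05, for which no share of all genes is given.

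**Figure D5:**
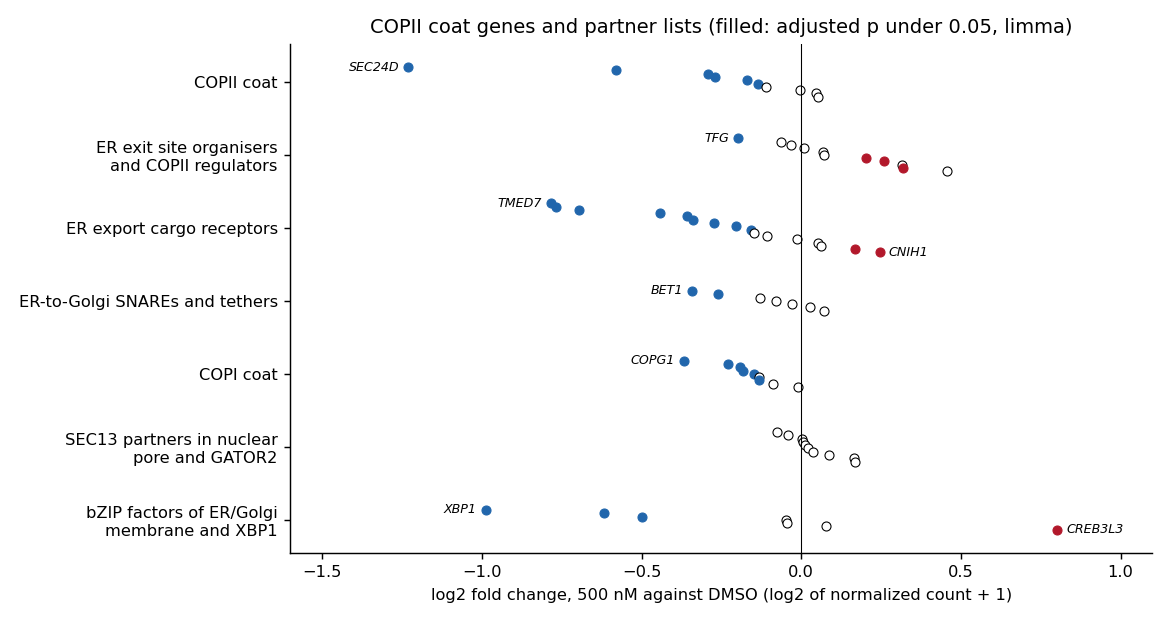
Log2 fold change at 500 nM against DMSO (x axis, log2 of normalized count + 1) of the COPII coat genes and of 6 partner lists (y axis), one point per tested gene; filled points passed an adjusted p of 0.05 in limma, blue lower and red higher. SEC24D, at -1.23, lies left of all other points, and in the list of SEC13 partners no point is filled.

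XBP1, ATF6 and the CREB3 family are bZIP transcription factors, and those made in the ER or Golgi membrane are known to act on genes of the secretory pathway. Of 7 tested members, 3 fell and 1 rose at 500 nM (background 10.1% lower and 7.69% higher). At 0.5 and at 5 nM 2 of the 7 fell and 0 rose (background 1.17% and 2.18% in either direction). XBP1 had 1907, 1876 and 1736 normalized counts in DMSO and 892, 957 and 931 at 500 nM, a log2 change of -0.99 (adjusted p = 4.45e-10, limma). XBP1 was also lower at 5 nM, by a log2 change of -0.40 (adjusted p = 0.000741, limma). At 0.5 nM its change was -0.25 (adjusted p = 0.0362, limma), a call lost in 11 of 25 other settings. ATF6 had 1157, 1101 and 1081.5 normalized counts in DMSO and 753, 714 and 709 at 500 nM, a log2 change of -0.62 (adjusted p = 1.01e-07, limma). CREB3L3, with 26.9 to 31.5 normalized counts in DMSO and 45.04 to 54.0 at 500 nM, rose by 0.80 (adjusted p = 0.0195, limma), a call that ended on omission of replicate 1 or 2 of either group (adjusted p up to 0.0701). These are levels of RNA, and neither the splicing of XBP1 nor the cleavage of ATF6 was measured.

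RefSeq promoters (GRCh38.p14) matched 9 of the 10 coat genes, all but SEC24D, in 14 promoters, and the 250 bases before each start were searched on both strands for the letters of 4 motifs. The ER stress element (CCAAT and CCACG with 9 bases between them) occurred in 0 of these 14 promoters and in 0.074% of 35116 promoters of all genes. The cAMP response element TGACGTCA occurred in 0 of the 14 and in 1.65% of all promoters. The CCAAT box, which is also part of the first motif, occurred in 3 of the 14, 1 each of SAR1B, SEC23B and SEC31A, and in 32% of all promoters. The core of the unfolded protein response element, TGACGTGG, occurred in 1 of the 14, that of SEC24A, and in 0.612% of all promoters. It is shown because SEC24A is the coat gene with the second largest fall, and its letters start 179 bases before the start on the plus strand, at chr5:134648596-134648623 with 10 bases on each side. This stretch is also inside the bounds of SAR1B on the opposite strand, and the capitals mark the motif.
SEC24A: tgagagtcggTGACGTGGcggcgaggcc
A match of letters is a description of the sequence, and binding at this place was not measured.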

How the data were processed

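RNA-seq of 15 libraries (5 groups of 3) was used. Per the study's methods, the authors aligned paired poly-A reads to hg38 with HISAT2, counted them with HTSeq and divided them by DESeq2 size factors; versions and strandedness are not given in the sources used here. The deposited values are thus a signal, normalized counts. Dividing by each library's smallest step gave whole reads for 100.0% of values (tolerance 0.001). 1 line without a gene was left out. Depth limits precision: low counts vary most.

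limma 3.58.1 (R 4.3.3) was fitted to log2(normalized count + 1) in all libraries with a variance trend. Alternatives were edgeR 4.0.16 and DESeq2 1.42.0 on recovered reads, other scalings, filters and pseudocounts, and omitted libraries. The test was tried on simulated data. Positions came from GENCODE 44, and minimap2 2.31-r1302 found no near-identical copies of the coat transcripts beyond their overlaps with other genes. SEC13, SEC23A, SAR1B and SEC24B share 3.83%, 3.74%, 3.6% and 0.881% of their exon bases with genes on the opposite strand.

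The members and lists were chosen with earlier results of these data known. Named were all coat genes, SEC31B, PREB, up to 2 rises and 2 falls per list at 500 nM, and the 5 genes most like SEC24D.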

Additional observations from a re-analysis of the deposited data

How the results depend on the processing

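For the 10 coat genes, 1970 values were recomputed under other settings. Of these 1917 kept their call or lack of one, 39 lost a call, 14 gained one and 0 reversed. The 152 recomputed values of the paralog pairs all kept theirs. A change of direction was counted as a reversal only where the main or the recomputed value passed. Some values that did not pass changed sign. SEC24C at 0.5 nM, for example, had a log2 change of -0.08 with all libraries and 0.06 without replicate 2 at that dose. The count of 1 coat gene at 0.5 nM became 0 with no filter on low genes, TMM scaling, edgeR, or the libraries of 0.5 nM and DMSO alone. The count of 0 at 5 nM became 1 (SAR1A) with a filter at a mean of 50, the same total per library, DESeq2, the libraries of 5 nM and DMSO alone or an adjusted p under 0.1. With the filter removed, the calls of SEC23A at 50 nM (adjusted p = 0.0659, limma), SEC13 and SAR1A at 500 nM (0.0848 and 0.114) and CREB3L3 (0.0571) were lost. More genes were then tested and the variance trend was fitted anew, and the part of each in the loss was not tested. The 6 partner lists held 11, 16, 7, 9, 10 and 7 tested genes. Over these lists together, the count of 2 at 0.5 nM became 1 with no filter or with the libraries of 0.5 nM and DMSO alone. That of 5 at 5 nM became 8 with the libraries of 5 nM and DMSO alone. Leaving out 1 library gave 0 to 1 coat genes at 0.5 nM, 0 to 1 at 5 nM, 2 to 5 at 50 nM and 4 to 6 at 500 nM, and 1 to 3, 1 to 8, 13 to 24 and 19 to 31 partner genes. The 2 coat genes at 50 nM came without DMSO replicate 1 or 50 nM replicate 1. With all libraries, 1.17%, 2.18%, 6% and 17.8% of all tested genes passed at the rising doses in either direction. The shares with 1 library left out are not given, so these ranges have no background beside them.

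A pairing of samples by replicate number was not detected. Same-numbered libraries of other groups correlated in their deviations by -0.0855 to 0.0961 over 30 pairs, and libraries with other numbers by -0.13 to 0.123 over 60 pairs. How the samples were handled is not shown by this. With the replicate number as a block, the count at 5 nM became 1 (SAR1A, adjusted p = 0.0376, limma), the counts at 0.5, 50 and 500 nM were 1, 4 and 6, and the slope of SEC24D to SEC24B stayed at -0.312 per step.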
